A study of Mus musculus with 13 samples.

Results

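Histone deacetylases and sirtuins take acetyl groups off lysines of histones and of other proteins. The Hdac genes of class I (Hdac1, Hdac2, Hdac3 and Hdac8) and class II (Hdac4 and Hdac6) encode enzymes that use zinc, whereas the sirtuins use NAD+. Hdac1 and Hdac2 are paralogous catalytic subunits of the SIN3, NuRD and CoREST complexes, and Hdac3 is the catalytic subunit of the NCoR and SMRT complex. In a growing mouse oocyte chromatin goes from a non-surrounded nucleolus (NSN) to a surrounded nucleolus (SN) form and transcription stops. Histones then lose acetyl groups during meiotic maturation from the germinal vesicle (GV) stage to metaphase II (MII), and maturation runs on stored mRNAs, many of which are degraded or change the length of their poly(A) tails.

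The 10 genes described here are Hdac1, Hdac2, Hdac3, Hdac4, Hdac6, Hdac8, Sirt1, Sirt2, Sirt6 and Sirt7, chosen by symbol. All 10 were found among the 18939 genes with counts and among the 49686 genes with FPKM values. Single oocytes of C57BL/6 females aged 3 to 4 weeks, taken 48 h after PMSG, were sequenced in 13 libraries: 3 of SN and 3 of NSN oocytes at the GV stage, and 4 and 3 that had gone on to MII from the SN form (SN-MII) and from the NSN form (NSN-MII). Every oocyte had been injected with mRNA for FBL-GFP, a fluorescent nucleolar protein, and for H2B-mCherry, held at the GV stage for 6 h with 10 µM Cilostamide and sorted into NSN or SN by the pattern of FBL-GFP. There was no uninjected group, the MII oocytes are those that completed maturation in culture, and no label tells which oocytes came from the same female, so each p-value measures the spread between oocytes.

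Libraries held 7140416 to 8846287 counts over genes. The number of genes with a count ran from 12699 to 13342 in GV and from 11593 to 12522 in MII oocytes. The library of NSN-MII oocyte 3 stood apart, with the fewest genes (11593) and the largest share of counts in its top 10 genes (12.1%). All 10 oocyte markers looked at, such as Gdf9 and Zp3, were detected. Summed over 12 markers of cumulus and granulosa cells, the level was 61.1 to 92.4 CPM (counts per gene relative to library size) in GV libraries and 101 to 188 CPM in MII libraries, against 17914 to 33480 CPM for the oocyte markers. Of the 12, 11 were detected in at least 1 library and Foxl2 in none, and of the 6 tested between the stages 2 were called higher at MII and none lower. The oocyte marker sum was 24418 to 26954 CPM in SN GV and 27047 to 33480 CPM in NSN GV oocytes. It was 21380 to 24285 CPM in SN-MII and 17914 to 19077 CPM in NSN-MII oocytes, so the types did not overlap at either stage. The sum of cumulus and granulosa markers, the number of genes and the top 10 share all moved with the stage. Their part in the differences between GV and MII was not tested.

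Among the 10 genes Sirt7 and Sirt6 had the highest levels at the GV stage. Levels of different genes were compared in FPKM, which divides counts by transcript length. Sirt7, a nucleolar sirtuin, was at 52.0 ± 7.50 FPKM (mean ± SD, n = 6), between 44.7 and 63.4. Sirt6, a chromatin-bound sirtuin that acts on histone H3, came next at 36.6 ± 3.06 FPKM, between 32.6 and 41.3. The ranges of Sirt7 and Sirt6 did not overlap with each other, nor did that of Sirt6 with the range of Hdac2, next among the 10. Of the sirtuins outside the 10, the mitochondrial Sirt5 was at 47.7 to 153 FPKM and Sirt4 at 16.6 to 27.2 FPKM.

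From there on, each gene of the GV order overlapped in range with the next. Hdac2 was at 14.6 ± 5.90 FPKM, with a lowest value of 5.22 and a highest of 21.1. Sirt2, a mostly cytoplasmic sirtuin that deacetylates tubulin, was at 9.59 ± 2.84 FPKM, and Sirt1, a nuclear sirtuin, at 9.18 ± 4.29 FPKM. Hdac6, the cytoplasmic tubulin deacetylase, was at 7.41 ± 1.79 FPKM. Hdac8, which deacetylates the cohesin subunit SMC3, was at 6.57 ± 2.34 FPKM. The lowest levels were those of Hdac1 (5.36 ± 1.56 FPKM), Hdac3 (3.93 ± 2.34 FPKM) and Hdac4 (2.03 ± 0.825 FPKM), the class II enzyme that shuttles between nucleus and cytoplasm.

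At the MII stage the order of the 10 genes was different, with Hdac2 first among them at 15.3 ± 7.41 FPKM (n = 7, 7.43 to 29.3). In each of the 7 MII libraries Hdac2 was above Sirt7, whereas in each of the 6 GV libraries Sirt7 was above Sirt6 and Sirt6 above Hdac2. Sirt7 followed at 8.05 ± 3.81 FPKM and Sirt6 at 7.05 ± 2.76 FPKM. Sirt2 was last at 0.283 ± 0.283 FPKM, between 0 and 0.780. Between them came Sirt1 (5.46 ± 1.04 FPKM), Hdac8 (5.11 ± 1.59), Hdac6 (3.53 ± 1.16), Hdac3 (3.33 ± 1.23), Hdac4 (2.76 ± 0.781) and Hdac1 (2.34 ± 1.32 FPKM). All neighbours in the MII order of the 10 overlapped in range. Sirt4, outside the 10, was at 45.0 to 53.8 FPKM, above Hdac2 in every MII library, and Sirt5 at 39.4 ± 32.6 FPKM, between 6.79 and 96.3.

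The summed level of the 10 genes was 147 ± 19.8 FPKM (SD, n = 6) in GV oocytes and 53.2 ± 13.6 FPKM (n = 7) in MII oocytes, and the stage ranges (126 to 182 FPKM and 39.5 to 72.6 FPKM) did not overlap. The 4 sirtuins made up 73.0% ± 3.83 of this sum in GV oocytes and 39.2% ± 5.50 in MII oocytes. The 4 class I genes made up 20.4% ± 4.28 and 48.5% ± 5.29. In FPKM, class I was at 30.4 ± 9.54 in GV and 26.0 ± 8.34 in MII oocytes, so most of the difference in the sum lay in the sirtuins, which were at 107 ± 13.9 and 20.8 ± 5.82 FPKM. The sums leave out Sirt3, Sirt4 and Sirt5, so the shares hold for the 10 genes only and not for all sirtuins. Sirt4 was at 16.6 to 27.2 FPKM in GV and 45.0 to 53.8 FPKM in MII oocytes. Sirt5 was at 47.7 to 153 FPKM in GV and 6.79 to 96.3 FPKM in MII oocytes. The sums over the 10 genes are descriptions and were not tested. They use FPKM without TMM scaling between libraries. Over all genes the median log2 fold change from GV to MII was -0.24 on log2(FPKM + 1), beside -0.10 with TMM-scaled counts.

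**Figure D1:**
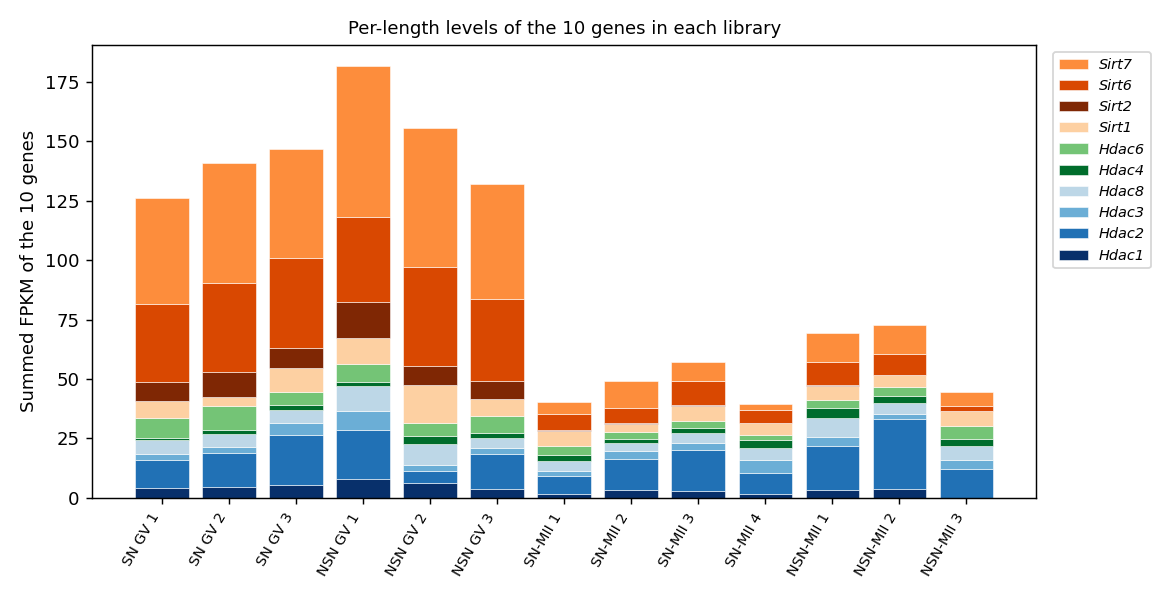
Stacked FPKM of the 10 genes in each of the 13 libraries (y axis: summed FPKM, 1 bar per oocyte, 1 colour per gene, sirtuins in orange and brown, class I in blue, class II in green). The orange blocks of Sirt6 and Sirt7 fill 54.7% to 64.3% of each GV bar and 17.3% to 35.7% of each MII bar.

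Between the stages 5 of the 10 genes were called, that is, passed an adjusted p of 0.05 in edgeR's quasi-likelihood test. Hdac4 was higher at MII, and Hdac6, Sirt2, Sirt6 and Sirt7 were lower. Of all 11375 genes tested 68.6% were called (31.7% higher and 36.9% lower), so 5 of 10 is no larger a share than among genes at large. In 3 of the 10 genes (Sirt2, Sirt6 and Sirt7) the GV and MII libraries did not overlap, against 47.4% of all genes. The median log2 fold change of the 10 genes was -0.51, beside -0.10 over all genes. These folds are relative to the library: no spike-in was named, so RNA per oocyte was not measured, and SMART-seq2 primes on poly(A) tails, so the amount of an mRNA and the length of its tail cannot be told apart. Counts scaled to library totals alone in place of TMM put the median over all genes at -0.39. They changed the direction of none of the 5 called genes.

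Sirt2 differed most. Its level was 15.0, 17.7 and 14.5 CPM in SN GV oocytes and 22.9, 14.6 and 13.9 CPM in NSN GV oocytes. It was 0.530, 0.898, 1.44 and 0 CPM in SN-MII oocytes and 0.476, 0 and 0.169 CPM in NSN-MII oocytes. All 6 GV oocytes were thus well above all 7 MII oocytes, of which 2 had no read. A count of 0 allows a level of up to 0.409 CPM in SN-MII oocyte 4 and 0.371 CPM in NSN-MII oocyte 2, taking 3 counts as the limit, and such limits cover counting error only. Summed, 834 counts in the GV libraries stood against 27 in the MII libraries. The log2 fold change was -5.30 (SE 0.53, edgeR adjusted p = 2.10e-07), and a mean of 16.4 CPM was 32.7 times the MII mean of 0.503 CPM. With so few MII counts the fitted value depends on the scale: on log2(FPKM + 1) it was -3.06, also called. The gene lies at chr7:28766735-28788661 on the + strand (GRCm38) and shares 42 of its 5035 exonic bases with Nfkbib on the other strand, where reads cannot be assigned without strand.

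Sirt6 (chr10:81621785-81627797, - strand) was at 60.1, 66.9 and 65.1 CPM in SN GV oocytes and at 55.3, 75.8 and 62.5 CPM in NSN GV oocytes. In SN-MII oocytes it was at 13.5, 12.6, 19.97 and 12.3 CPM, and in NSN-MII oocytes at 17.1, 15.6 and 4.39 CPM. The lowest GV oocyte was above the highest MII oocyte, and the lowest MII value was that of NSN-MII oocyte 3. The log2 fold change was -2.25 (SE 0.26, edgeR adjusted p = 8.30e-07), from a mean of 64.3 to 13.6 CPM. Leaving out any 1 library kept it between -2.42 and -2.07.

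Sirt7 (chr11:120618372-120625240, - strand) was measured in GV oocytes at 77.1, 85.8 and 73.1 CPM in SN and 91.2, 101 and 83.0 CPM in NSN oocytes. It was at 9.68, 19.5, 12.9 and 4.50 CPM in SN-MII and at 20.1, 20.3 and 11.98 CPM in NSN-MII oocytes. No MII oocyte reached the GV range. The log2 fold change was -2.57 (SE 0.26, edgeR adjusted p = 2.23e-07), from 85.3 to 14.1 CPM. Of its 5148 exonic bases 124 are shared with Mafg on the same strand.

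Hdac6 (chrX:7930120-7947889, - strand) was at 37.0, 38.4 and 22.6 CPM in SN GV and 27.5, 23.6 and 31.7 CPM in NSN GV oocytes. It was at 18.8, 12.4, 14.2 and 10.5 CPM in SN-MII and 14.4, 15.9 and 27.2 CPM in NSN-MII oocytes. All MII oocytes but NSN-MII oocyte 3 lay below all GV oocytes. The log2 fold change over both types was -0.88 (SE 0.22, edgeR adjusted p = 0.00234). In SN oocytes alone it was -1.22 (SE 0.30, edgeR adjusted p = 0.00269). In NSN oocytes alone it was -0.53 (SE 0.33, edgeR adjusted p = 0.179), and -0.89 without NSN-MII oocyte 3, which was then called (adjusted p = 0.0340). The difference between the types in this change was not called (log2 0.69, SE 0.45, edgeR adjusted p = 0.9997).

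Hdac4 (chr1:91928779-92195699, - strand) was the one of the 10 that rose. It was at 4.84, 7.80 and 8.73 CPM in SN GV and 7.35, 13.9 and 9.98 CPM in NSN GV oocytes, and at 14.7, 10.8, 12.5 and 18.3 CPM in SN-MII and 18.6, 16.3 and 20.4 CPM in NSN-MII oocytes. Within each type every MII oocyte was above every GV oocyte, while across types NSN GV oocyte 2 reached into the MII range. The log2 fold change was 0.90 (SE 0.24, edgeR adjusted p = 0.00358). On log2(FPKM + 1) in limma it was 0.35 and not called (adjusted p = 0.126). The length that RSEM took for Hdac4, read as count over FPKM and scaled to each library, varied 1.52 times between libraries. The median over 6849 genes was 1.22. Relative to its median over the libraries, the Hdac4 length was 0.82 to 1.11 in GV and 0.95 to 1.24 in MII oocytes. Counts and FPKM need not move alike, and the part of this length in the rise was not tested. In SN oocytes the call was lost without SN GV oocyte 1 (adjusted p = 0.109) and without SN-MII oocyte 4 (adjusted p = 0.0588), and in NSN oocytes the adjusted p was 0.0556. Of its 15813 exonic bases 3536 lie opposite the long noncoding RNA gene Gm26720, which was listed at 0 FPKM in every library.

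Hdac1 (chr4:129516104-129542713, - strand) lay close to the threshold. It was at 8.66, 9.46 and 10.1 CPM in SN GV and 14.2, 12.98 and 7.96 CPM in NSN GV oocytes. It was at 3.98, 6.55, 5.65 and 3.41 CPM in SN-MII and 6.30, 8.04 and 0 CPM in NSN-MII oocytes. Only NSN-MII oocyte 2 reached the GV range. NSN-MII oocyte 3 had no Hdac1 count at all, which allows up to 0.506 CPM. The log2 fold change was -1.10 (SE 0.50, edgeR adjusted p = 0.0590). Without NSN-MII oocyte 3 it was -0.84 and called (adjusted p = 0.0161), and it was called by DESeq2 (-1.17, adjusted p = 0.0208) and by limma on log2(FPKM + 1) (-1.06, adjusted p = 0.0115). The processed pseudogene Gm10093 matches 1444 of the 2038 bases of the Hdac1 transcript at 99.4% identity, so RSEM can share reads between them. It was listed at 0 FPKM in 12 libraries and at 0.2 FPKM in NSN-MII oocyte 3. Hdac1 itself was at 3.25 and 3.89 FPKM in NSN-MII oocytes 1 and 2. Whether reads were shared was not tested.

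The remaining 4 genes were not called, with log2 fold changes of 0.24 (SE 0.28) for Hdac2, -0.070 (SE 0.36) for Hdac3, -0.14 (SE 0.26) for Hdac8 and -0.12 (SE 0.27) for Sirt1. The lowest adjusted p among them in edgeR was that of Hdac2 (0.463). Sirt1 was at -0.55 in limma on log2(FPKM + 1), also not called (adjusted p = 0.0567). Its RSEM length, read as for Hdac4, varied 1.95 times between libraries. Relative to its median it was 0.69 to 1.04 in GV and 0.89 to 1.35 in MII oocytes. The FPKM and counts of Sirt1 need not move alike. Hdac2 ran from 10.9 to 40.0 CPM (median 28.9) in GV and from 16.2 to 59.3 CPM (median 30.04) in MII oocytes. Hdac3 ran from 4.14 to 13.97 CPM (median 5.55) and from 4.11 to 11.7 CPM (median 6.80). For both, the MII range covered most of the GV range. Hdac8 ran from 6.82 to 16.4 CPM (median 10.03) in GV and from 6.67 to 15.8 CPM (median 8.65) in MII oocytes, and Sirt1 from 4.96 to 16.5 CPM (median 9.84) and from 6.42 to 11.4 CPM (median 9.02). Standard errors of this size leave room for changes in either direction, and the missing calls do not show that the levels were equal. Hdac2 made up 71.0% ± 12.7 of the summed FPKM of Hdac1 and Hdac2 in GV oocytes and 86.6% ± 6.53 in MII oocytes, and the ranges (46.0% to 80.2% and 80.6% to 100%) did not overlap. This share was not tested, and the value of 100% is that of NSN-MII oocyte 3.

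**Figure D2:**
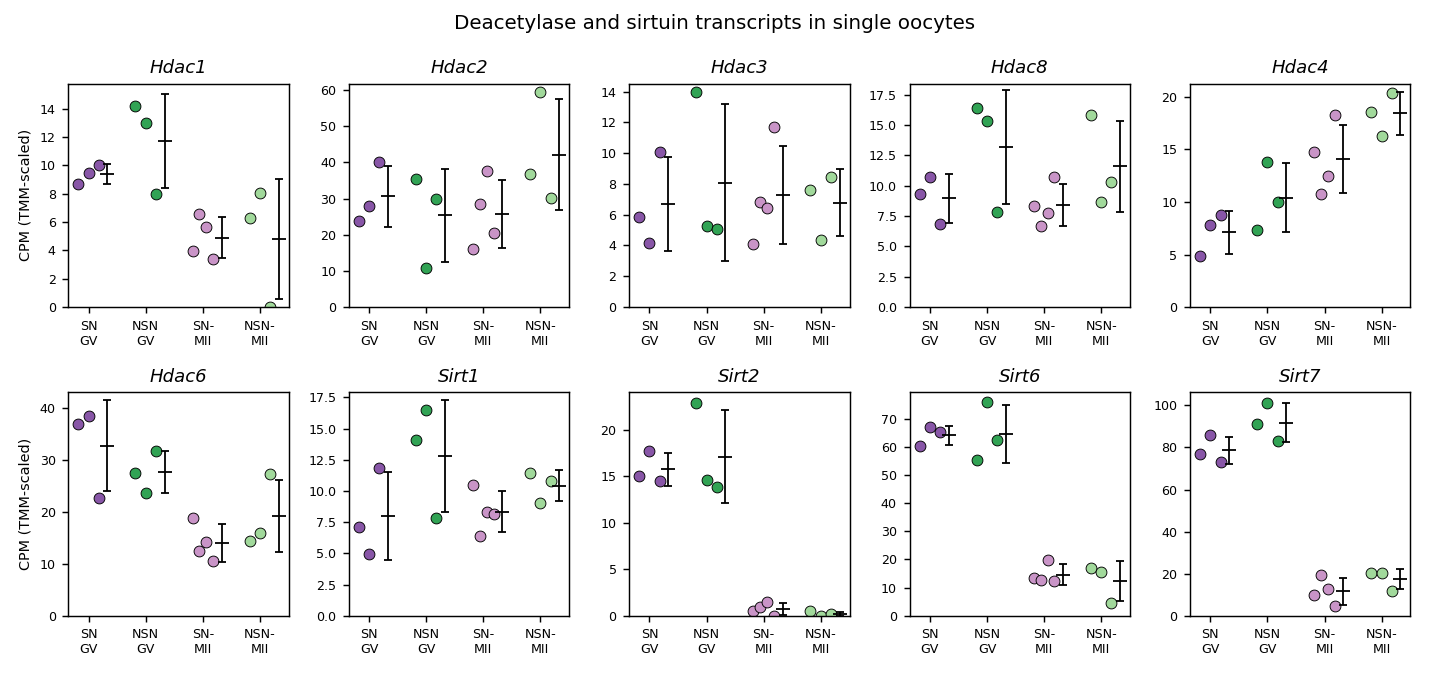
CPM of each of the 10 genes (y axis, linear and starting at 0, scaled by TMM) in SN GV, NSN GV, SN-MII and NSN-MII oocytes (x axis), with 1 point per oocyte and the mean ± SD beside the points. Sirt2, Sirt6 and Sirt7 drop from the GV to the MII groups without overlap, Hdac4 sits higher at MII, and Hdac2, Hdac3, Hdac8 and Sirt1 overlap between the stages.

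Each type was also compared by itself. In SN oocytes 5 of the 10 genes were called, Hdac4 higher and Hdac6, Sirt2, Sirt6 and Sirt7 lower, where 56.3% of all genes were called (25.1% higher and 31.2% lower). The libraries of 6 of the 10 genes did not overlap, against 63.4% of all genes. In NSN oocytes 3 were called, all lower (Sirt2, Sirt6 and Sirt7), where 56.3% of all genes were called (25.5% higher and 30.8% lower), and 4 did not overlap, against 60.9%. The log2 fold changes of Sirt6 were -2.13 (SE 0.34) in SN and -2.37 (SE 0.38) in NSN oocytes, and those of Sirt7 -2.75 (SE 0.35) and -2.39 (SE 0.38). For Sirt2 they were -4.42 (SE 0.65) and -6.18 (SE 0.84), the latter resting on 5 counts in all at MII. The 6 adjusted p-values from edgeR ran from 6.21e-06 to 7.02e-05.

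**Figure D3:**
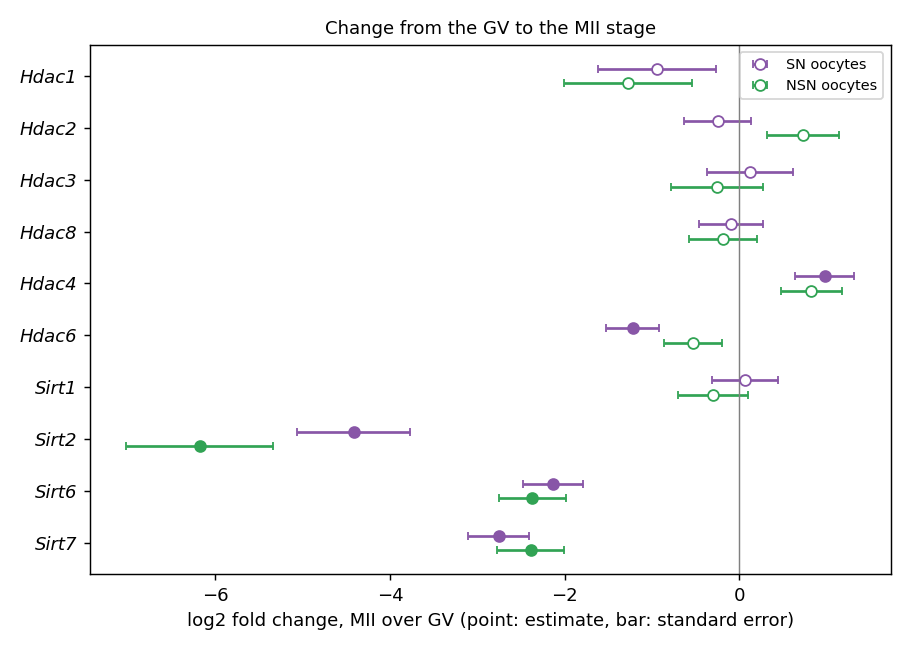
Log2 fold change from GV to MII (x axis) of the 10 genes in SN oocytes (purple) and NSN oocytes (green), with the standard error as a bar and filled points where the adjusted p was under 0.05. Sirt2, Sirt6 and Sirt7 are filled and left of 0 in both types, and Hdac4 and Hdac6 are filled in SN oocytes.

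NSN and SN oocytes were compared to see whether the form of the nucleolus goes with the level of these genes. At the GV stage none of the 10 genes was called by edgeR, nor was any other gene of the 10839 tested (0%). Of all genes 1.75% had an unadjusted p under 0.05, none of the 10 among them, and the groups overlapped for each of the 10, whereas 6.04% of all genes did not overlap. The largest difference was that of Sirt1, at 7.14, 4.96 and 11.8 CPM in SN and 14.1, 16.5 and 7.83 CPM in NSN oocytes (log2 0.69, SE 0.45). Hdac8 (log2 0.60, SE 0.39) and Hdac4 (0.54, SE 0.39) followed. For Sirt6 the difference was 0.023 (SE 0.19) and for Sirt7 0.25 (SE 0.18), the smallest errors of the 10.

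The highest GV values of 8 of the 10 genes fell in 2 libraries. NSN GV oocyte 1 held the highest GV value of 4 genes (Hdac1, Hdac3, Hdac8 and Sirt2) and NSN GV oocyte 2 that of another 4 (Hdac4, Sirt1, Sirt6 and Sirt7). NSN GV oocyte 2 also held the lowest value of Hdac2 (10.9 CPM) and oocyte 1 the lowest of Sirt6 (55.3 CPM). NSN GV oocyte 3 held the highest value of none. Of the 10 differences 8 were above 0, with a median of 0.28 on the log2 scale, beside 5542 of 10839 genes and a median of 0.0070, and the 10 share the same 6 libraries.

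At the MII stage none of the 9 genes tested was called by edgeR, where 0.259% of all genes were called. Sirt2 did not pass the filter on low counts. None of the 9 had an unadjusted p under 0.05, against 9.38% of all genes, and none had groups that did not overlap, against 10.2%. Hdac2 came closest, at 16.2, 28.6, 37.7 and 20.6 CPM in SN-MII and 36.9, 59.3 and 30.04 CPM in NSN-MII oocytes. Its log2 difference was 0.71 (SE 0.33, edgeR adjusted p = 0.539), and SN-MII oocyte 3 was above 2 of the 3 NSN-MII oocytes. It was 0.36 without NSN-MII oocyte 2 and 0.95 without SN-MII oocyte 3.

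Sirt7 (0.59, SE 0.44), Hdac8 (0.47, SE 0.35), Hdac6 (0.44, SE 0.32), Hdac4 (0.39, SE 0.28) and Sirt1 (0.32, SE 0.33) were above 0 on the log2 scale, and Sirt6 (-0.22, SE 0.43), Hdac3 (-0.11, SE 0.44) and Hdac1 (-0.0051, SE 0.85) were below. NSN-MII oocyte 3 set several extremes. It held the lowest MII values of Hdac1 (0 CPM) and Sirt6 (4.39 CPM) and the highest of Hdac4 (20.4 CPM) and Hdac6 (27.2 CPM). Without it the difference of Hdac1 was 0.56, that of Sirt6 0.18 and that of Hdac6 0.13, none of them called. SN-MII oocyte 4 held the lowest MII values of Hdac6 (10.5 CPM) and Sirt7 (4.50 CPM) and the highest of Hdac3 (11.7 CPM).

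Whether the difference between the types changed with the stage was tested as an interaction. No gene of the 10 was called by edgeR, where 0.0176% of all genes (2 of 11375) were called. An unadjusted p under 0.05 was found for 5.33% of all genes and for none of the 10. The largest interactions were those of Sirt2 (log2 -1.76, SE 1.07) and Hdac2 (0.98, SE 0.57), both with an edgeR adjusted p of 0.9997. For Hdac2 this is the difference between a change of -0.25 (SE 0.39) in SN and 0.73 (SE 0.42) in NSN oocytes, neither of which was called.

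**Figure D4:**
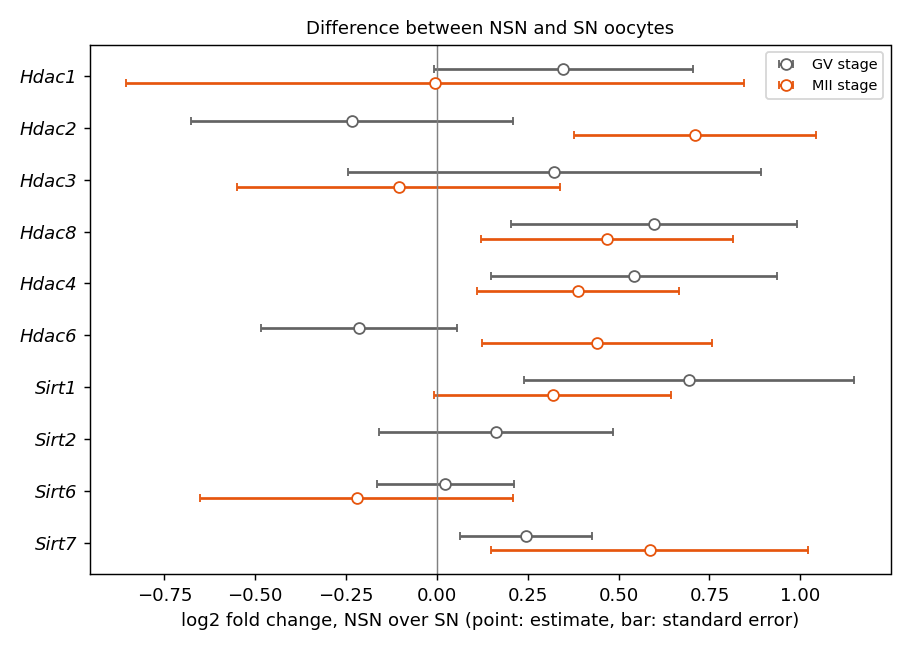
Log2 fold change of NSN over SN oocytes (x axis) for the 10 genes at the GV stage (grey) and the MII stage (orange), with the standard error as a bar. No point is filled, since no adjusted p was under 0.05, and Sirt2 has no MII point because it was not tested there.

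The spread between oocytes differed between the genes. At the GV stage the pooled SD within groups, on the log2 CPM scale, was 0.13 for Sirt7 and 0.17 for Sirt6, where the 500 genes nearest to each in level had a median of 0.30. For Hdac2 it was 0.70, against 0.36, and 89.0% of the 500 genes nearest to it in level varied less. This rests on NSN GV oocyte 2, without which the SD of Hdac2 was 0.33, against 0.28 for the same 500 genes. Without that oocyte Sirt6 was at 0.098, against 0.23. At the MII stage Sirt6 and Sirt7 varied more, both at 0.73, against 0.45 and 0.43, and single libraries carried these values too. Without NSN-MII oocyte 3 the SD of Sirt6 was 0.29, below the 0.38 of like genes, and without SN-MII oocyte 4 that of Sirt7 was 0.47, against 0.43. Hdac1 had the largest SD at MII (2.16, against 0.68), which fell to 0.39, against 0.59, without the 0 of NSN-MII oocyte 3. Leaving out single libraries here was chosen after seeing the data. Sirt1 (0.25, against 0.53) and Hdac4 (0.27, against 0.43) varied little there.

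Of the 8 other deacetylase and sirtuin genes of the mouse looked at, 6 were tested between the stages, of which 2 were higher and 2 lower at MII, a share called near the 68.6% of all genes. Hdac9, a class II enzyme like Hdac4, went from 1.37 to 6.15 CPM in GV to 7.91 to 15.9 CPM in MII oocytes (log2 1.78, SE 0.34, edgeR adjusted p = 0.000195). Sirt4, a mitochondrial sirtuin, went from 19.3 to 37.4 CPM to 53.6 to 89.3 CPM (log2 1.40, SE 0.19, edgeR adjusted p = 5.06e-06). Neither overlapped between the stages.

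Hdac10, known as a polyamine deacetylase, had 82 counts summed over the GV and 5 over the MII libraries and was called lower. Hdac11 was called lower too (edgeR adjusted p = 0.0295), but this rests on few libraries, since its level was above 1 CPM in 3 GV oocytes and in 1 MII oocyte, and it was called in 9 of 13 fits that left out 1 library (highest adjusted p 0.309). The mitochondrial Sirt3 (-1.10, SE 0.55, edgeR adjusted p = 0.0863) and Sirt5 (-0.84, SE 0.44, edgeR adjusted p = 0.0961) were not called. Sirt3 shares 418 exonic bases with Ric8a and 342 with Psmd13 on the other strand. Of the 3849 exonic bases of Hdac11, 594 lie opposite Gm44002. Gm44002 was above 0 FPKM only in NSN GV oocyte 1 (1.45) and NSN-MII oocyte 1 (0.37). These oocytes also held the highest Hdac11 level of their stage (6.09 and 1.78 CPM). Sirt5 ran from 16.2 to 214 CPM in MII oocytes. Hdac5 and Hdac7 were at or near 0 and were not tested, with at most 2.37 CPM (Hdac7 in NSN GV oocyte 2).

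Among partners of the class I enzymes more genes were higher than lower at MII. Of 16 SIN3 complex genes tested 10 were higher and 2 lower, with a median log2 fold change of 0.93, where 31.7% of all genes tested were higher and 36.9% lower with a median of -0.10. Rbbp7, a histone-binding subunit shared with NuRD, rose from 1418 to 2526 CPM to 4301 to 7959 CPM (log2 1.45, SE 0.17, edgeR adjusted p = 1.16e-06), and the scaffold gene Sin3a rose by 1.42. Brms1 fell the most, from 48.6 to 74.2 CPM to 0.796 to 3.42 CPM (log2 -4.74, SE 0.27, edgeR adjusted p = 2.42e-10).

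Of 10 NuRD genes 3 were higher (Gatad2b by 1.66, Gatad2a by 1.30 and the remodeller Chd4 by 0.91) and Mbd3 was lower (-2.92), with a median of -0.054. Of 6 CoREST genes tested 3 were higher and none lower by edgeR (median 0.71). Both lists thus had a smaller share called than the 68.6% of all genes. The CoREST genes that rose included the scaffold Rcor1 (1.69) and the histone demethylase Kdm1a (1.26). Of 4 NCoR and SMRT genes tested Ncor1 (2.05) and Tbl1xr1 (1.51) were higher and Gps2 was lower (-2.50), so 3 of 4 were called, near that share.

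Among genes with the opposite activity, 6 of 10 lysine acetyltransferases tested were higher and 2 lower (median 0.92), against 31.7% and 36.9% of all genes. Ep300 rose from 6.34 to 14.9 CPM to 17.5 to 45.3 CPM (log2 1.52, SE 0.27, edgeR adjusted p = 0.000110). Kat8, which acetylates histone H4, fell from 178 to 263 CPM to 8.17 to 23.2 CPM (log2 -3.94, SE 0.23, edgeR adjusted p = 3.14e-10). Kat5 fell as well (-1.43). Atat1, the tubulin acetyltransferase whose mark Hdac6 and Sirt2 remove, rose by 1.42 on the log2 scale. The bromodomain genes Brd2, Brd3 and Brdt, whose products read acetylated histones, rose by 1.31, 1.10 and 1.41.

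Genes of the synthesis and use of NAD+, the cosubstrate of the sirtuins, were described in the same way. Of 9 tested 6 were lower and 1 higher, with a median of -1.51, against 36.9% lower and 31.7% higher of all genes, and the 7 called of 9 lie near the 68.6% of all genes. In SN oocytes alone 3 were lower, 1 higher and 5 not called (median -0.93), where 31.2% of all genes were lower and 25.1% higher. In NSN oocytes alone 5 were lower, 1 higher and 3 not called (median -1.36), against 30.8% and 25.5% of all genes. Nampt, of the salvage route from nicotinamide, fell by 1.51 on the log2 scale, and Nadsyn1, the NAD+ synthetase, fell by 3.09. Naprt had no count in any MII library and was at least 9.69-fold lower at MII, taking 3 counts per library as the floor. Nadk, which turns NAD+ into NADP+, was the one that rose (1.66, SE 0.15). Counts scaled to library totals called fewer genes higher, 33.5% of the calls in SN oocytes against 44.6% with TMM. No gene of these partner and cofactor lists was called between NSN and SN oocytes at either stage by edgeR. Among all genes tested the share called was 0% in GV oocytes and 0.259% in MII oocytes. The absence of calls therefore does not set these lists apart from genes at large.

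**Figure D5:**
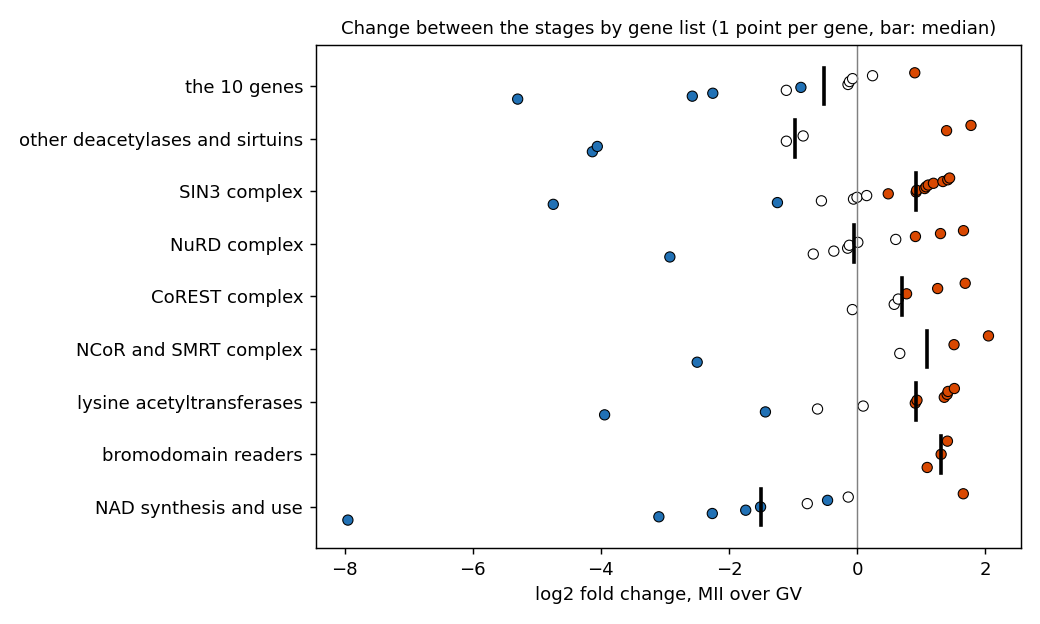
Log2 fold change from GV to MII over all libraries (x axis) of each gene tested, by list (y axis), with called genes in orange (higher) or blue (lower), genes not called in white and the median of each list as a bar. The bar lies at 1.31 for bromodomain readers and at -1.51 for NAD synthesis and use, and the leftmost point is Naprt, whose fitted value depends on the prior count.

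Maturation acts on stored mRNAs through their 3′ ends, so the ends of the transcripts were read. In oocytes a cytoplasmic polyadenylation element (CPE) near the polyadenylation signal is known to bind CPEB proteins and direct the lengthening of the poly(A) tail. The last 100 bases of the principal GENCODE transcript (M21, GRCm38, the build called mm10 in the processing notes) were searched on the transcript strand for the CPE (TTTTAT or TTTTAAT) and the signal (AATAAA or ATTAAA). The motifs can overlap, as in a TTTTAAT that runs into AATAAA, and were then counted under both names. Windows of 30 bases, all in the 3′ UTR of the last exon, are shown for the 5 genes called between the stages, for Sirt1 as a gene of the 10 with a CPE, and for Sirt4, which rose. Capitals mark the signal or the CPE.

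Sirt2 (chr7:28788623-28788652, + strand): tattagaaacaaATTAAAaaacaaaacaaa
Sirt6 (chr10:81621799-81621828, - strand): agctcccaatgcAATAAAtacaaaatccct
Sirt7 (chr11:120618374-120618403, - strand): tgagcaagtcttATTAAAcatctctcaatt
Hdac6 (chrX:7930132-7930161, - strand): gtcagcatatttAATAAAgttggagttgct
Hdac4 (chr1:91928789-91928818, - strand): tctcgtggtgtaAATAAAgactgcgttaat
Sirt1 (chr10:63319052-63319081, - strand): acaaaaacagtgTTTTATacttgtatcttg
Sirt4 (chr5:115478010-115478039, - strand): ccaaatAATAAAttatTTTTAATagcataa

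All 10 genes had a signal within the last 100 bases, as had 81.8% of 10608 genes tested between the stages whose transcript could be read. A CPE lay in that window in 2 of the 10, Hdac3 (86 bases from the end) and Sirt1 (65 bases from the end), neither of which was called. None of the 4 genes that fell held these letters there, nor did Hdac4, which rose. Of the other family members that rose, Sirt4 held 2 CPE matches and Hdac9 none. Over all genes a CPE was found in 20.1%, which was 29.7% of the genes called higher at MII, 11.1% of those called lower and 20.3% of those not called. These matches describe the letters of 1 annotated end per gene, and the ends in use in these oocytes were not measured here.

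Genes whose log2 CPM followed most closely those of Hdac4 and Sirt2, the largest rise and the largest fall among the 10, were looked up over the 13 libraries. For Hdac4 they were Ccnt1 (Pearson's r = 0.92), Arid4b (0.92) and Kansl2 (0.91), and 4 of 11374 genes were above 0.9. Arid4b is a subunit of the SIN3 complex and Kansl2 of a complex of Kat8. For Sirt2 they included Phkg2 (0.98) and Osgin1 (0.98), among 1243 genes above 0.9. The libraries fall into the GV and MII stages and no correlation was computed within a stage, so these values are a description of the 13 libraries only.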

How the data were processed

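RNA of 13 single oocytes was amplified with SMART-seq2. The authors trimmed reads (Trim Galore 0.4.4), aligned them to mm10 (Bowtie2 2.3.5) and quantified genes with RSEM 1.2.28, per the submitters' processing notes and the methods, which name neither molecular identifiers nor strand. They deposited estimated counts, 1 table per stage, of which 11.0% to 16.6% per library were not whole numbers, and FPKM values, 1 table for all libraries. Counts were rounded here, filtered with filterByExpr, scaled by TMM and tested in edgeR 4.0.16 (R 4.3.3, quasi-likelihood, Benjamini-Hochberg over all genes). The stages were fitted together over all 13 libraries, and NSN and SN were compared within each stage's table. CPM values use the TMM factors of all 13 libraries (0.799 to 1.26). Alternatives were DESeq2 1.42.0, its size factors, library totals, no filter, the replicate number as a block, limma 3.58.1 (trend) on log2(FPKM + 1) with a mean FPKM of at least 1, a pseudocount of 0.1, no filter on FPKM, and leaving out each library. The fits were also run on counts simulated under edgeR's own model, and that run says nothing about outlying libraries. The 10 genes and the lists were chosen with earlier results of these data known. From each list the genes with the largest rise and fall among those called are named, all genes of the deacetylase family are given, and further list genes were picked after their values were seen. Coordinates come from GENCODE M21. Protein sequences were not used here, and some genes of the lists are not reported here. Imaging and maturation rates were not analysed here.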

Additional observations from a re-analysis of the deposited data

Results flagged for a closer look

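Sirt6 in SN-MII oocyte 3 (19.97 CPM) stood apart from the other SN-MII oocytes (12.3, 12.6 and 13.5 CPM) by Dixon's test, in 1 of 10 groups of 4 values tested, where chance gives about 1 in 20. Without this library the log2 fold change of Sirt6 between the stages in SN oocytes was -2.32.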

How the results depend on the processing

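The calls of Sirt2, Sirt6, Sirt7 and Hdac6 over all libraries kept their direction and stayed under the threshold in every alternative and with any library left out, with values of Sirt6 between -2.52 and -2.07. Hdac4 over all libraries was not called by limma at any setting (0.35 to 0.50), and in SN oocytes it was also lost with library totals (0.66, adjusted p = 0.0970). Hdac1 over all libraries was called in all alternatives but the block, and in 2 of 13 fits without a library. In NSN oocytes Hdac4 was called by DESeq2 (0.79), Hdac6 with library totals (-0.86) and Hdac1 by limma on log2(FPKM + 1) (-1.30, adjusted p = 0.0327), though not with a pseudocount of 0.1 (adjusted p = 0.0593) or without the filter (adjusted p = 0.0855). The number of the 10 genes called stayed at 5 or 6 over all libraries, 4 to 6 in SN, 3 or 4 in NSN and 0 elsewhere.

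Over all genes, limma called 1 gene between NSN and SN at GV. At MII, in place of 26, DESeq2 called 218, library totals 16, no filter 89, limma 4 at either pseudocount and 2 without a filter, and fits without 1 library 2 to 233, the latter without NSN-MII oocyte 3. In the interaction, in place of 2, DESeq2 called 46, no filter 6, limma 1 (4 without a filter), and fits without 1 library 0 to 12. The cause was not tested.

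Values not called turned sign. Library totals gave 0.091 for Hdac1 between types at MII, -0.059 for Hdac2 over all libraries, and -0.22 for Hdac3 and -0.25 for Sirt1 in SN oocytes. Limma in SN oocytes gave -0.020 (pseudocount 1, with and without filter) and -0.030 (0.1) for Hdac3 and -0.29 and -0.32 for Sirt1, and in the interaction 0.048 and 0.077 for Hdac8 and 0.040 and 0.022 for Hdac4. Without 1 library, values between types at GV ran from -0.084 to 0.076 for Sirt6, -0.63 to 0.13 for Hdac2, -0.42 to 0.77 for Hdac3 and -0.18 to 0.31 for Sirt2, and at MII from -0.59 to 0.56 for Hdac1, -0.30 to 0.22 for Hdac3 and -0.53 to 0.18 for Sirt6. Between stages they ran from -0.23 to 0.26 for Hdac3 and -0.24 to 0.079 for Sirt1 over all libraries, from -0.21 to 0.53 for Hdac3, -0.19 to 0.46 for Sirt1 and -0.27 to 0.056 for Hdac8 in SN, and from -0.50 to 0.40 for Hdac3 and -0.54 to 0.0035 for Hdac8 in NSN oocytes. In the interaction they ran from -0.35 to 0.11 for Hdac4, -0.43 to 0.10 for Hdac8, -0.79 to 0.28 for Hdac3, -0.90 to 0.21 for Hdac1 and -0.56 to 0.15 for Sirt6.

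Groups share replicate numbers, and no label says whether these pair the oocytes. Deviations of same-numbered oocytes from their group means had correlations of -0.40 to 0.20. With so few oocytes per group, these correlations cannot decide whether the numbers pair them. With the replicate number as a block 2 genes were called between types at MII, the 10 genes kept 5 calls over all libraries, Hdac4 in SN oocytes was at 0.86 (adjusted p = 0.0703), and Hdac3 at MII (0.21), Hdac3 in SN oocytes (-0.11) and Hdac8 in the interaction (0.052) turned sign. Every NSN GV oocyte correlated best with its own number among NSN-MII oocytes (r from 0.028 to 0.20). Between SN GV and SN-MII this held for number 1 only. Between the types it held for number 2 only at MII and for none at GV.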
